A study of Mus musculus with 2 samples.

Results

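Blood and endothelial cells of the mouse embryo arise at gastrulation from a small group of mesoderm cells, and 10 regulators of this step were followed here in single cells: the receptors *Kdr* and *Tek*, the transcription factors *Etv2*, *Tal1*, *Fli1*, *Gata1*, *Gata2*, *Runx1* and *Sox7*, and the adaptor *Lmo2*. They were matched by symbol to 10 of the 32285 genes counted. Cells came from embryonic day 7 (E7) embryos in 1 control and 1 *Yap1* cKO library, made with a droplet protocol that tags each captured transcript with a unique molecular identifier (UMI). In the cKO embryos (Sox2cre:Yapflox/flox), Sox2-Cre, which acts in the epiblast and the cells derived from it, deletes a floxed *Yap1*, the gene of a transcriptional coactivator of the Hippo pathway. The controls are labelled WT, while the study's methods give them as Sox2cre:Yapflox/+ in one place and as floxed littermates without Cre in another. The methods give pools of 4 control and 3 cKO embryos, so each genotype is 1 library of pooled embryos. Extraembryonic tissues are not the target of Sox2-Cre and are held by the study to be probably heterozygous for *Yap1* in both genotypes.

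The pathway is well known. Kdr (also called Flk1 or VEGFR2) is the receptor of VEGF-A that marks mesoderm able to form blood and vessels, and Etv2 is an ETS factor that acts briefly and early in these cells. Tal1 and Lmo2 then work in one complex with GATA factors, Fli1 and Sox7 belong to the early endothelial and blood program, Runx1 and Gata1 mark the entry into blood, and Tek (Tie2) is the angiopoietin receptor of endothelial cells. YAP1 binds DNA through TEAD factors, whose preferred site contains the letters GGAATG.

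On the GRCm38 build (mm10), *Kdr* lies at chr5:75932827-75978458 on the minus strand and *Etv2* at chr7:30633616-30635852, also on the minus strand. *Tal1* lies at chr4:115056426-115071755, *Tek* at chr4:94739289-94874976, *Lmo2* at chr2:103957986-103981878, *Gata2* at chr6:88193891-88207032 and *Sox7* at chr14:63943673-63950732, all on the plus strand. *Fli1* lies at chr9:32422204-32542861, *Gata1* at chrX:7959260-7978071 and *Runx1* at chr16:92601466-92826149, on the minus strand. *Lmo2*, *Fli1* and *Runx1* each overlap a gene on the other strand, and *Fli1* also overlaps short genes on its own strand. *Gata1* is X-linked, and whether this affects its level in pools of both sexes was not tested.

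RefSeq promoter windows (GRCm38.p6) were at hand for 7 of the 10 members and not for *Lmo2*, *Fli1* and *Sox7*. Shown are the 250 bases before the start of *Etv2*, the first start of *Tal1* and the second, inner start of *Runx1*. These 3 genes carry the contrasts described below, and the windows shown overlap no annotated exon. The *Runx1* window lies in an intron of the longer *Runx1* transcripts, and the other windows lie outside annotated genes. Capitals mark matches, on either strand, to the letters AGATAA bound by Gata factors, to GGAAG bound by ETS factors, to TGTGGT bound by Runx factors, to GGAATG bound by TEAD factors and to AACAAT bound by Sox factors.
Etv2, chr7:30635853-30636102, minus strand: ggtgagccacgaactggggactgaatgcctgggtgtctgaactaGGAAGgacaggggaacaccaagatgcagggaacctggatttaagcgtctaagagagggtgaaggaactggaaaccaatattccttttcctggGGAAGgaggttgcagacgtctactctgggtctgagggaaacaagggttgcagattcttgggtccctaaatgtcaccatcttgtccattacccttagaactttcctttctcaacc
Tal1, chr4:115056176-115056425, plus strand: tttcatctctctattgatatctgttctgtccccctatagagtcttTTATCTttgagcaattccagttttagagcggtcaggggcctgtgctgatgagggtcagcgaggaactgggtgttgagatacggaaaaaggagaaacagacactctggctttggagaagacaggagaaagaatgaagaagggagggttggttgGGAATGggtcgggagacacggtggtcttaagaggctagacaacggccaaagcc
Runx1, inner start, chr16:92697330-92697579, minus strand: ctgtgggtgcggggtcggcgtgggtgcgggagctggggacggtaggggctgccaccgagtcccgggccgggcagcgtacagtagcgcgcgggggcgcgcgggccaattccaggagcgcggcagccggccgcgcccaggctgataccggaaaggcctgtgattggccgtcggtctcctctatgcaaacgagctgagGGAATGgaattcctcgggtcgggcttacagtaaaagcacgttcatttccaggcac
The *Etv2* window held 2 matches to GGAAG, at 206 to 202 and at 114 to 110 bases before the start. The *Tal1* window held 1 GATA match at 205 to 200 bases and 1 GGAATG at 53 to 48 bases before the start, and the *Runx1* window held 1 GGAATG at 55 to 50 bases before its start. The windows of the second *Tal1* start, which also overlaps no exon, and of the first *Runx1* start are not shown. Each held 1 GGAAG and no GGAATG. Over all 32817 windows of the same length, 12.6% held GGAATG, 9.99% AGATAA and 64.1% GGAAG, so that a match is no mark of these genes. None of the 3 windows held the E-box letters CANNTG, which 66.2% of all windows held, and none held TGTGGT or AACAAT.

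Cells with at least 5000 detected genes numbered 790 in the control and 860 in the cKO library, with medians of 75696 and 80559 UMIs. They were sorted into 8 gates by genes that are not members. *Yap1* fell in the embryonic cells from 30.0 to 1.68 CPM (UMIs of a gene scaled to a common total of UMIs), a ratio of 0.0559 (95% interval 0.0442 to 0.0699), and its ratio was 0.828 in visceral endoderm and 0.749 in extraembryonic ectoderm. The labels call both samples female, but 51.6% of the control cells and 15.6% of the cKO cells were Y-bearing (at least 2 UMIs of 4 Y-linked genes and none of *Xist*), so the pools held embryos of both sexes in different shares. With 1 library per genotype there is no replicate and no test between genotypes, and every interval covers counting error only. The libraries shared 2 cell barcodes.

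The blood and endothelial gate, set by a UMI of at least 3 of 12 genes such as *Cdh5*, *Rasip1*, *Esam*, *Gfi1b* and *Ikzf1*, held 24 control cells, 4.68% of 513 embryonic cells (exact binomial interval 3.02 to 6.88%), and 23 cKO cells, 4.33% of 531 (2.77 to 6.43%). The intervals overlap widely. Of the gate's defining genes, 11 of 12 were seen in the control and 10 of 12 in the cKO cells. The embryonic globin *Hba-x* was at 0 in both and *Hbb-bh1* had 8 and 0 UMIs, so cells rich in embryonic globin were not seen in this gate. In the node and axial gate of the cKO, the adult globins *Hbb-bs* and *Hbb-bt* had 3175 and 1125 UMIs, beside 8 and 2 in the control. The list of markers of maternal blood and immune cells, which includes these globins, summed there to 3.22 CPM in the control and 983 in the cKO. In the blood and endothelial gate this list summed to 1.64 and 1.18 CPM, with *Lyz2* and *C1qa* at 0 in both. The gate was not pure. The epiblast list summed to 289 and 225 CPM, and to 10.3 and 14.2 CPM without the cells at 0 *Kdr*. The primitive streak list, at 136 and 264 CPM (163 and 215 without them), differed between the libraries. So did the nascent mesoderm list, at 36.8 and 103 CPM (48.6 and 96.7), and the Foxf1/Hand1 list, at 120 and 162 CPM (112 and 231). Their part in the ratios below was not tested. In the gate, 5 control and 4 cKO cells had no *Kdr* UMI, and 1 of these control cells held 1172 UMIs of *Prl3d1*, a placental lactogen made by trophoblast giant cells. Results that rest on such cells are given with and without them.

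Within the blood and endothelial gate, every member was far above its level in most other gates, as the plot of CPM by gate shows. Among the receptors, *Kdr* stood at 186 CPM in the control (Poisson interval 170 to 204) and 184 in the cKO (167 to 201), and *Tek* at 36.8 (29.6 to 45.2) and 22.4 (17 to 29.1). *Etv2* stood at 155 CPM (140 to 171) and 254 (235 to 275). The Tal1 complex was strong in both libraries, with *Tal1* at 143 and 107 CPM, *Lmo2* at 382 and 281, and *Gata2* at 85.5 and 53.1. *Fli1* had 204 and 161 CPM and *Sox7* 45.4 and 31.9. *Runx1*, the factor needed for definitive blood, had 143 (129 to 159) and 86.6 (75.5 to 98.8). *Gata1*, the erythroid GATA factor, had only 38 and 34 UMIs, or 15.5 (11.0 to 21.3) and 13.4 (9.27 to 18.7) CPM.

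**Figure D1:**
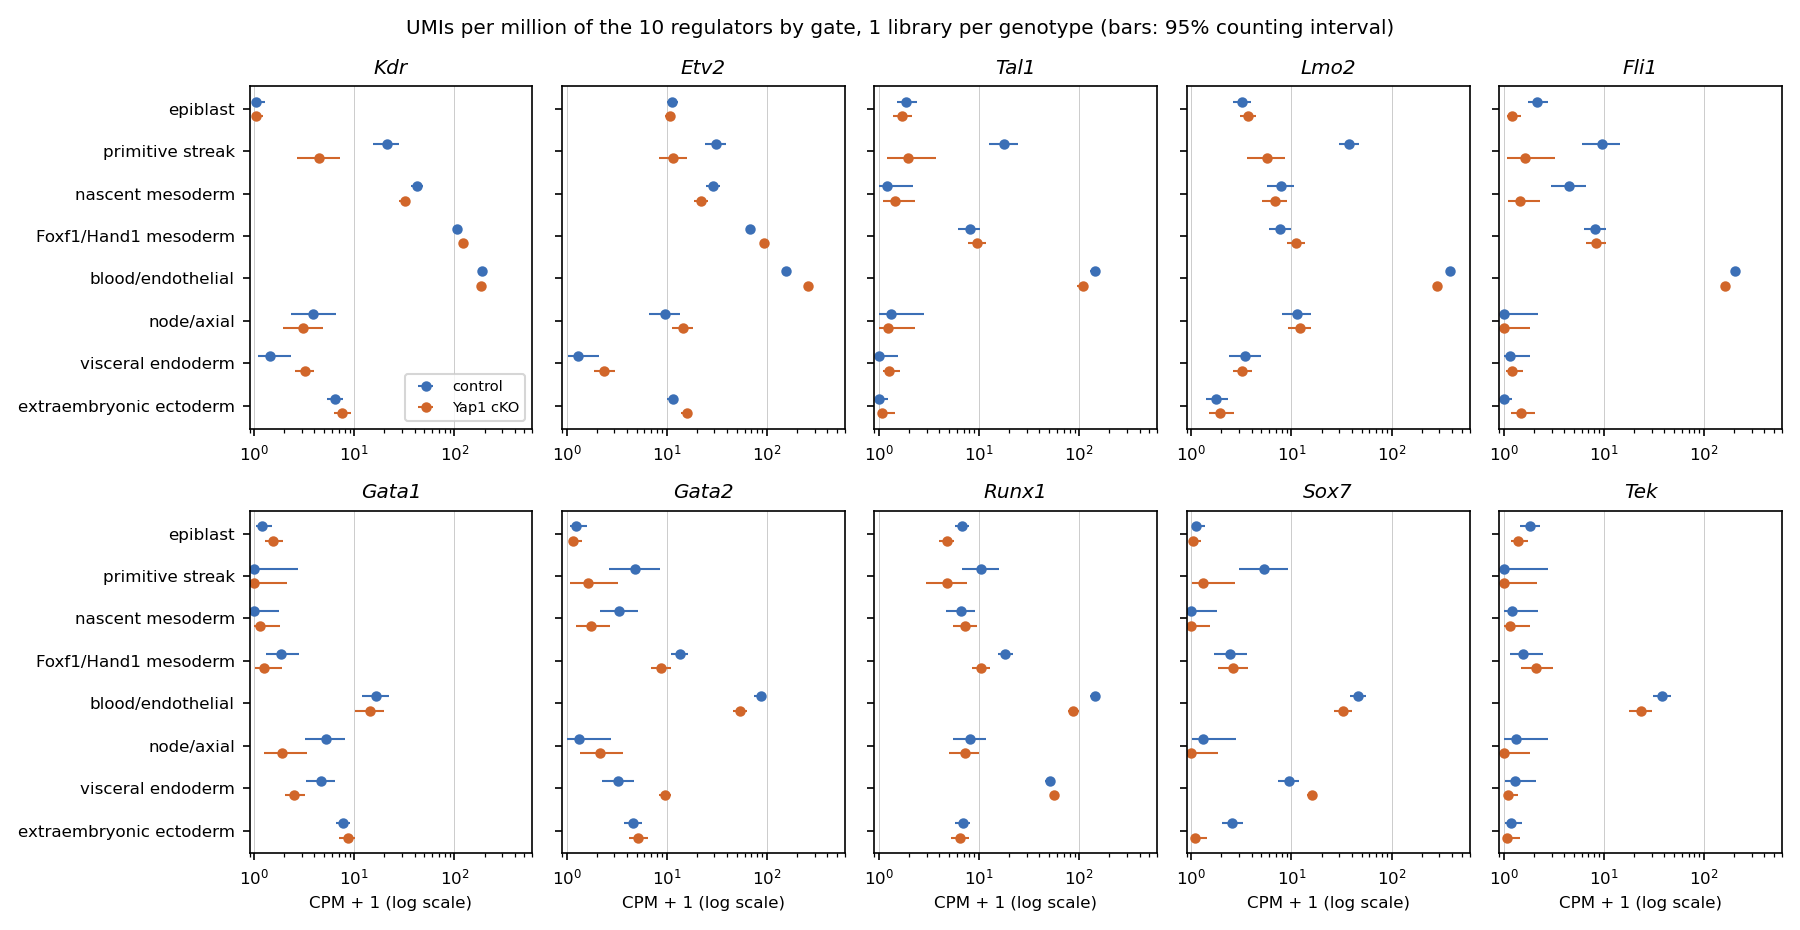
CPM plus 1 (log axis) of each regulator in 8 gates, with control in blue, *Yap1* cKO in orange and bars for the 95% Poisson interval of the 1 library per genotype. All 10 genes peak in the blood and endothelial gate, *Kdr* and *Etv2* with a second step in Foxf1/Hand1 mesoderm, *Runx1* and *Sox7* with one in visceral endoderm.

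All 10 members had their highest level in the blood and endothelial gate in both libraries, with an interval that did not overlap that of the next gate. Since that gate was drawn to collect such cells, the rank is a description and not a result. What lay below it differed between members. *Kdr* fell in steps, in the control from 186 CPM to 105 in Foxf1/Hand1 mesoderm, 41.2 in nascent mesoderm and, with 42 UMIs in all, still less in the primitive streak, each interval apart from the next. In the cKO the first steps were 184, 120 and 30.8 CPM. *Etv2* followed the same first step (67.5 and 91.8 CPM in Foxf1/Hand1 mesoderm) and reached 28.1 and 21.0 CPM in nascent mesoderm. In the control, the streak (30.0 CPM) and nascent mesoderm did not differ beyond their intervals for *Etv2*.

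*Tal1*, *Fli1* and *Tek* were low outside the gate, apart from *Tal1* in the control streak. It had 16.7 CPM there over all streak cells together, carried by a few of them. In the cKO, *Tal1* dropped from 107 CPM to 8.56 in Foxf1/Hand1 mesoderm and to 0.934 in the streak. *Tek* was at most 1.10 CPM in any other gate of either library. *Fli1* reached 7.17 and 7.33 CPM in Foxf1/Hand1 mesoderm, and 8.58 and 0.623 CPM in the streak, there with 18 and 2 UMIs. It was at 0 UMIs in node and axial cells of both libraries. *Lmo2* came next after the gate in the control streak, at 36.7 CPM, beside 4.67 in the cKO streak. It was also seen in node and axial cells, at 10.3 and 11.2 CPM, in 17 of 37 and 23 of 46 cells. The interval there overlapped that of nascent mesoderm (6.87 CPM) in the control and of Foxf1/Hand1 mesoderm (10.1 CPM) in the cKO.

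*Runx1* and *Sox7* had a second home in visceral endoderm, the extraembryonic layer around the epiblast. *Runx1* had 49.6 CPM in 90 control and 55.5 CPM in 223 cKO cells, with a UMI in 82.2 and 88.3% of them. *Sox7* had 8.35 and 15.0 CPM there. In visceral endoderm *Tal1* had 0 and 5 UMIs and *Tek* 2 and 2. *Gata1* came next after the gate in extraembryonic ectoderm, with 6.74 and 7.56 CPM in 27.9 and 47.0% of 179 and 100 cells, where *Tal1* had 0 and 1 UMI.

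Low *Etv2* was widespread. In epiblast cells it had 10.4 and 9.77 CPM, with a UMI in 33.6 and 28.6% of cells after each cell was thinned to 38000 UMIs (55.0 and 53.0% before), and in extraembryonic ectoderm 31.4 and 31.6% after thinning. In visceral endoderm the thinned shares were 0% of 83 control and 3.02% of 199 cKO cells, and the medians before thinning were 71647 and 74744 UMIs, beside 76664 and 86206 in the epiblast. The shares in epiblast and extraembryonic ectoderm were above those in visceral endoderm, and the part of free RNA in them was not tested. *Kdr* in the same epiblast cells had 1 UMI in each library.

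The cKO was compared with the control gate by gate, to ask which regulators differ when *Yap1* is lost. A gene was counted as higher or lower where its ratio of cKO to control CPM was past 1.5 in either direction, its exact interval left out 1 and both libraries together held at least 20 UMIs. In the blood and endothelial gate all 10 members could be compared: 1 was higher and 3 were lower. Over all 10162 genes compared there, 5.70% were higher and 3.81% lower (9.51% in either direction). The median log2 ratio of the members was -0.43, and that of all genes 0.02. *Etv2* was higher, with a ratio of 1.64 (1.44 to 1.87). Of its 646 cKO UMIs, 78 and 99 were in cells counted as neither Y-bearing nor Xist-bearing. *Runx1* was lower at 0.605 (0.509 to 0.718), *Gata2* at 0.622 (0.497 to 0.775) and *Tek* at 0.609 (0.430 to 0.859). *Lmo2* (0.735), *Tal1* (0.750), *Fli1* (0.785) and *Sox7* (0.702) had intervals below 1 but did not pass 1.5-fold, and the intervals of *Kdr* (0.986) and *Gata1* (0.861) held 1.

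These ratios turned with the sex of the cell, and so with the embryos in the pools. Cells counted as neither Y-bearing nor Xist-bearing, which held much of the cKO *Etv2*, were left out of this split. Among Y-bearing cells of the gate (13 control, 7 cKO), *Runx1* had 187 CPM in the control and 9.35 in the cKO, a ratio of 0.050 (0.0226 to 0.0966). Among Xist-bearing cells (11 and 14) it had 97.1 and 165 CPM, a ratio of 1.70 (1.34 to 2.15). In the 7 Y-bearing cKO cells *Runx1* did not exceed 3 UMIs, whereas in the 14 Xist-bearing cKO cells it reached 56. *Etv2* went the other way, with 126 and 288 CPM in Y-bearing cells (ratio 2.28, 1.87 to 2.79) and 185 and 155 CPM in Xist-bearing cells (0.838, 0.687 to 1.02). In all, 9 of the 10 ratios were above 1 for Xist-bearing cells and below it for Y-bearing ones, *Etv2* being the reverse. The Xist-bearing intervals of *Tal1* (0.969 to 1.56), *Sox7* (0.989 to 2.39), *Tek* (0.761 to 1.95) and *Etv2* held 1. The split was smaller for most members without the cells at 0 *Kdr*. There (11 and 5 Y-bearing, 8 and 12 Xist-bearing cells), *Runx1* was at 0.0702 (0.0255 to 0.155) and 1.36 (1.08 to 1.73) and *Etv2* at 4.75 (3.89 to 5.82) and 0.652 (0.534 to 0.796), Y-bearing cells first. *Lmo2* moved to 0.558 and 1.09 and *Fli1* to 0.736 and 1.09, while *Tal1* (0.761 and 0.969) and *Tek* (0.493 and 0.950) were then below 1 for both sexes. *Kdr* moved to 0.901 (0.708 to 1.14) and 1.29. The cells were left out by *Kdr* itself, so its UMIs stayed the same and only the UMI totals changed. Cells of one sex in a pool may come from a single embryo, and the part of genotype, sex and embryo in these ratios cannot be told apart.

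**Figure D2:**
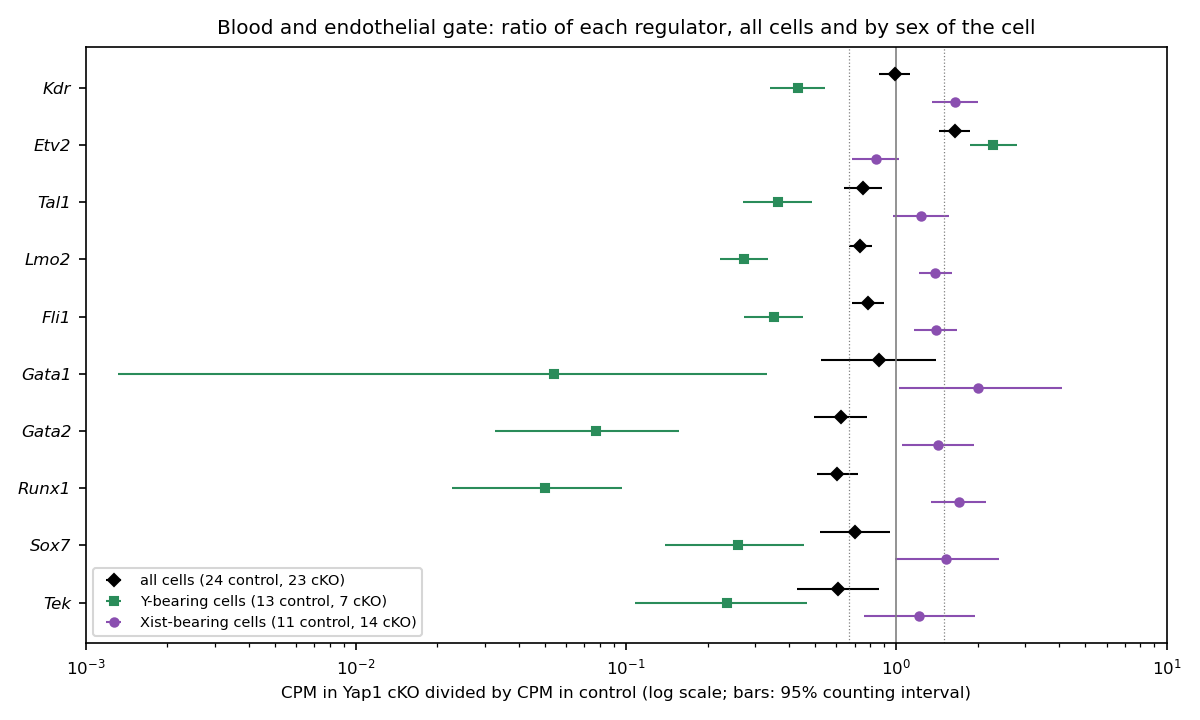
Ratio of cKO to control CPM of each regulator in the blood and endothelial gate (log axis, bars for the 95% exact interval), for all cells (black), Y-bearing cells (green) and Xist-bearing cells (purple), with dotted lines at 1.5-fold. The green and purple points lie on opposite sides of 1 for all 10 genes, with *Etv2* in the opposite order from the other 9. The purple bars of *Etv2*, *Tal1*, *Sox7* and *Tek* cross 1. Cells at 0 *Kdr* are included, and cells counted as neither Y-bearing nor Xist-bearing are in the black points only.

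Cell selection moved some of these calls as well. Without the cells at 0 *Kdr* UMIs, *Etv2* stayed higher (1.79) and *Runx1* lower (0.658), while *Gata2* (0.729) and *Tek* (0.667) no longer passed. With a stricter gate of 4 marker genes (13 and 8 cells) no member passed, with *Etv2* at 1.5, just inside the limit, and *Runx1* at 0.852. With a limit of 2 genes (60 and 73 cells) none was higher and 8 were lower, beside 3.94% and 5.18% of all genes under that limit, with *Etv2* at 1.14 and *Runx1* at 0.412. With the extraembryonic ectoderm limit first planned, which left 20 and 22 cells in the gate, the *Etv2* ratio was 1.44 and did not pass.

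The cells themselves show how uneven the gate is. *Runx1* ranged from 0 to 76 UMIs per cell in the control with a median of 11, and from 0 to 56 with a median of 2 in the cKO. *Etv2* ranged from 0 to 123 with a median of 7.5, and from 0 to 105 with a median of 12. *Lmo2* had medians of 38.5 and 28, with maxima of 120 and 111. *Kdr* had medians of 17 and 21 and a maximum of 54 in both libraries. For each member the ranges of both libraries began at 0 and overlapped over most of their length. Since all began at 0, the overlap does not measure how alike the libraries were. A *Gata1* UMI was found in 9 control and 9 cKO cells.

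Outside the gate, members of the compared set moved in several directions. In Foxf1/Hand1 mesoderm, the extraembryonic and lateral mesoderm from which the blood islands form, 8 members could be compared, with 1 higher and 2 lower beside 3.63% and 4.01% (7.63% in either direction) of 12431 genes. *Runx1* was lower there, at 17.3 and 9.53 CPM (ratio 0.551, 0.410 to 0.738), where Xist-bearing cells gave 0.478 (0.311 to 0.738) and Y-bearing cells 0.736 (0.459 to 1.15). *Gata2* was lower (0.625), but 20 of its 89 control UMIs were in 1 cell with 879 *Prl3d1* UMIs. Without the cells over 1000 CPM of *Prl3d1* its ratio was 0.800 with an interval from 0.560 to 1.14. *Lmo2* was just past the limit (1.5) and just inside it without those cells (1.49). *Etv2* had 67.5 and 91.8 CPM (1.36, 1.21 to 1.53), short of 1.5-fold, and again split by sex (Xist-bearing 0.701, Y-bearing 3.78).

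In the primitive streak gate, 6 members could be compared and all 6 were lower, beside 3.89% of 10330 genes (2.39% higher, 6.28% in either direction). *Kdr*, *Tal1*, *Lmo2*, *Fli1* and *Runx1* reached the minimum of 20 UMIs only with the control UMIs (their cKO counts were 11, 3, 15, 2 and 12). A call of lower was thus favoured for them, and the count of 6 is no measure of the members as a set. In the control, 3 of 31 cells held all 35 *Tal1* UMIs and 1 of them 25 of the 42 *Kdr* UMIs. With a limit of 2 genes for the blood and endothelial gate, which is filled before the streak gate, the *Etv2* ratio in the streak was 0.896 in place of 0.353 and that of *Lmo2* 0.856 in place of 0.127, and neither these nor *Runx1* (0.560) passed, while *Kdr*, *Tal1* and *Fli1* could no longer be compared. In nascent mesoderm 4 members could be compared and none passed, beside 6.56% of 11756 genes (3.22% higher, 3.33% lower), with *Kdr* at 0.747 and *Etv2* at 0.746. By sex, *Etv2* was at 2.61 (Y-bearing) and 0.454 (Xist-bearing) there, both past the limit.

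In visceral endoderm 4 of 7 members were higher and 1 lower, beside 2.53% and 4.52% (7.06% in either direction) of 12867 genes. Among those higher, *Kdr*, *Etv2* and *Gata2* reached the minimum of UMIs only with the cKO UMIs. Their control counts were 3, 2 and 15. A call of higher was thus favoured for them, and the count of 4 is no measure of the members as a set. *Sox7* went from 8.35 to 15.0 CPM (1.80, 1.34 to 2.45), and *Gata2* from 2.28 to 8.64 CPM (3.79, 2.23 to 6.94), with a UMI in 13.3 and 35.0% of cells. Among Xist-bearing cells (57 and 179) the ratios were 2.54 and 7.04. Among Y-bearing cells (27 and 19), *Sox7* was at 0.781 and *Gata2* had 7 and 0 UMIs, so the higher level was seen in Xist-bearing cells. *Kdr* and *Etv2* were also called higher, but from 3 and 2 control UMIs, and 27 of the 40 cKO *Kdr* UMIs were in 1 cell. Y-bearing and Xist-bearing cKO cells held only 0 and 5 of the 40 *Kdr* UMIs, and 3 and 7 of the 25 *Etv2* UMIs. The rest lay in cells counted as neither Y-bearing nor Xist-bearing. *Gata1* was lower (0.420). *Runx1* did not pass (1.12, 0.986 to 1.27), and its value was 1.38 among Xist-bearing and 0.737 among Y-bearing cells. The cKO library also held more visceral endoderm cells, 25.9% of its cells beside 11.4%.

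In extraembryonic ectoderm 7 members could be compared, and 1 was lower beside 2.15% of 12832 genes (3.12% higher, 5.27% in either direction). This was *Sox7*, with 26 UMIs in 3 control cells, 18 of them in 1 cell, and 1 UMI in the cKO. It reached the minimum only with the control UMIs, so a call of lower was favoured for it. In the epiblast, 2 of 6 members were lower beside 3.43% of 14733 genes (1.94% higher, 5.38% in either direction). *Runx1* went from 5.78 to 3.75 CPM (0.648, 0.484 to 0.864). *Fli1* had 23 and 5 UMIs and reached the minimum only with the control UMIs, 19 of them in 1 cell. A call of lower was thus favoured for it, and the count of 2 is no measure of the members as a set. In node and axial cells none of 3 passed, beside 9.52% of 11324 genes (2.54% higher, 6.98% lower).

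Over all embryonic cells together, 6 of 10 members were lower and none higher, beside 4.73% and 1.75% (6.48% in either direction) of 16773 genes. *Gata2* (0.554), *Tek* (0.554), *Runx1* (0.581), *Sox7* (0.582), *Fli1* (0.640) and *Tal1* (0.663) passed. *Kdr* was at 0.953 (0.888 to 1.02) and *Etv2* at 1.19 (1.11 to 1.28). Split by sex, *Etv2* was at 2.65 for Y-bearing and 0.657 for Xist-bearing cells. *Gata2* was at 0.227 and 0.826 (0.645 to 1.06), *Runx1* at 0.330 and 0.734, *Fli1* at 0.510 and 0.713 and *Sox7* at 0.534 and 0.700 (0.469 to 1.05), in the same order, so these 4 did not pass among Xist-bearing cells. *Tal1* (0.620) and *Tek* (0.658) passed there, and among Y-bearing cells *Tal1* was just inside the limit (0.671) and *Tek* at 0.431. This sum mixes the level within cells with the number of cells in each gate.

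The ligands, other receptors, partners and products of the pathway were read from lists of 57 genes, of which 41 reached 20 UMIs in the blood and endothelial gate. Here 3 were higher and 4 lower, beside 5.70% and 3.81% of all genes compared. None of the 8 partner proteins passed, among them *Ldb1*, *Lyl1*, *Tcf3* and *Cbfb*, and none of the 4 ligands that could be compared. Without the cells at 0 *Kdr*, some list genes passed as higher that had not passed with them. The ligand *Bmp4* was at 1.59 (1.14 to 2.22) and the receptor *Flt4* at 1.61 (1.01 to 2.60). *Elk3* was at 1.65 (1.15 to 2.37) and *Sox18*, also a gate gene, at 1.73 (1.06 to 2.88). In that setting *Sox17*, *Rasip1* and *Egfl7* were lower, and of all genes compared 6.73% were higher and 3.13% lower. Among receptors, *Kit*, the receptor of stem cell factor, was at 1.67 (1.08 to 2.63), but at 0.952 without the cells at 0 *Kdr*. The endodermal and endothelial factor *Sox17* was at 2.62 and *Mecom* at 5.56, and both rested on 1 cKO cell with 84 *Sox17*, 35 *Mecom* and no *Kdr* UMIs. Without the cells at 0 *Kdr*, *Sox17* turned to 0.567 and *Mecom* did not pass (2.11, 0.796 to 6.17). Of the products, VE-cadherin (*Cdh5*) was at 0.279, with 47 of its 76 control UMIs in the cell rich in *Prl3d1*. Without that cell it was at 0.705 (0.386 to 1.27).

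*Rasip1*, needed for vessel lumens, and *Egfl7*, a secreted endothelial protein, were lower with or without the cells at 0 *Kdr* over both sexes together. *Egfl7* went from 327 to 209 CPM (0.638, 0.570 to 0.712), and to 0.655 without the cells at 0 *Kdr*. *Rasip1* went from 38.4 to 21.6 CPM (0.563) and to 0.599. Among Xist-bearing cells neither passed, with *Egfl7* at 0.990 and *Rasip1* at 0.794, and among Y-bearing cells they were at 0.287 and 0.318. *Egfl7* also did not pass with 4 marker genes (0.753) or with cells weighted equally (0.705). *Rasip1* and *Cdh5* are also gate genes, so their levels depend on how cells were picked. *Smim1* was lower at 0.528 with 31 and 17 UMIs, and reached the minimum only with the control UMIs, so a call of lower was favoured. Without the cells at 0 *Kdr* its interval held 1 (0.507, 0.240 to 1.02). In Foxf1/Hand1 mesoderm, 4 of 32 list genes were higher (*Elk3*, *Hhex*, *Mecom*, *Ramp2*) and 5 lower (*Vegfa*, *Bmp4*, *Gata3*, *Cdh5*, *Pecam1*), beside 3.63% and 4.01% of all genes compared. Of these, *Cdh5* had 50 and 0 UMIs, and 1 and 0 without the cells rich in *Prl3d1*, and *Pecam1* went from 0.607 to 1.12 (0.631 to 2.03) without them. *Cdh5*, *Hhex* (16 and 35 UMIs) and *Mecom* (7 and 20) reached the minimum only with the library where they were high. Their calls were thus favoured, and the counts of 4 and 5 are no measure of the lists as a set. *Bmp4*, the ligand that induces extraembryonic mesoderm, had 85.7 and 47.7 CPM (0.556, 0.488 to 0.632), and *Vegfa*, the ligand of Kdr, 14.2 and 8.68 CPM (0.611, 0.445 to 0.836).

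Co-detection within a cell was then read for *Kdr*, *Etv2*, *Tal1* and *Runx1*. All 4 were found in 24 of 513 control embryonic cells (4.68%, 3.02 to 6.88%) and in 22 of 531 cKO cells (4.14%, 2.61 to 6.21%). After thinning, 16 of 501 (3.19%, 1.84 to 5.13%) and 16 of 513 cells (3.12%, 1.79 to 5.02%) remained, and no difference between the libraries was detectable at this number of cells. No cell of the epiblast or extraembryonic ectoderm gates held all 4 (0 of 238 and 0 of 236 epiblast cells, which by a limit of 3 counts allows shares of cells with a UMI of all 4 of up to 1.26 and 1.27%, and 0 of 179 and 0 of 100, up to 1.68 and 3.0%). Of the cells with all 4, 15 control and 16 cKO cells were in the blood and endothelial gate and 7 and 4 in Foxf1/Hand1 mesoderm, with the others in streak (2 control) and other embryonic gates (2 cKO), and these 4 genes had no part in setting the gates.

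Of the embryonic cells with *Kdr*, 75.9% of 141 control and 85.5% of 138 cKO cells also had *Etv2*, and after thinning 63.6% of 121 and 64.8% of 122. *Etv2* was common in all embryonic cells, in 302 of 513 control (58.9%) and 327 of 531 cKO cells. After thinning it was in 194 of 501 (38.7%) and 196 of 513. Of the same 513 and 531 cells, *Kdr* was in 27.5 and 26.0%, *Tal1* in 49 and 48 cells and *Runx1* in 202 and 194. *Tal1* was found in 22.0 and 22.5% of the cells with *Kdr* (20.7 and 22.1% after thinning). In the other direction, 63.3% of 49 and 64.6% of 48 cells with *Tal1* had *Kdr*, and after thinning 71.4% of 35 and 81.8% of 33. Before thinning, 18 control and 17 cKO cells with *Tal1* had no *Kdr*. *Tal1* was found in 15.8 and 13.4% of the 202 and 194 cells with *Runx1*, and in 11.6 and 12.8% of the 302 and 327 cells with *Etv2*. A common class was *Kdr* and *Etv2* without *Tal1*, with 78 control and 87 cKO cells (15.2 and 16.4%). *Kdr*, *Etv2* and *Tal1* without *Runx1* were found in 5 and 9 cells.

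The other 6 members, which the classes did not use, changed between the class without *Tal1* and the class with all 4. *Sox7* was seen in 1.28% and 4.60% of the cells with *Kdr* and *Etv2* without *Tal1* and in 83.3% and 77.3% of those with all 4. *Gata2* went from 19.2 and 26.4% to 95.8 and 81.8%, *Lmo2* from 25.6 and 31.0% to 87.5 and 95.5%, and *Fli1* from 21.8 and 25.3% to 18 of 24 and 19 of 22 cells. *Tek* went from 3.85 and 4.60% to 66.7 and 59.1%. *Gata1* was found in 37.5 and 36.4% of the cells with all 4 and in 0 of 5 and 1 of 9 cells that lacked only *Runx1*. The step was similar in both libraries, and the depth of the cells was not matched for these classes.

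**Figure D3:**
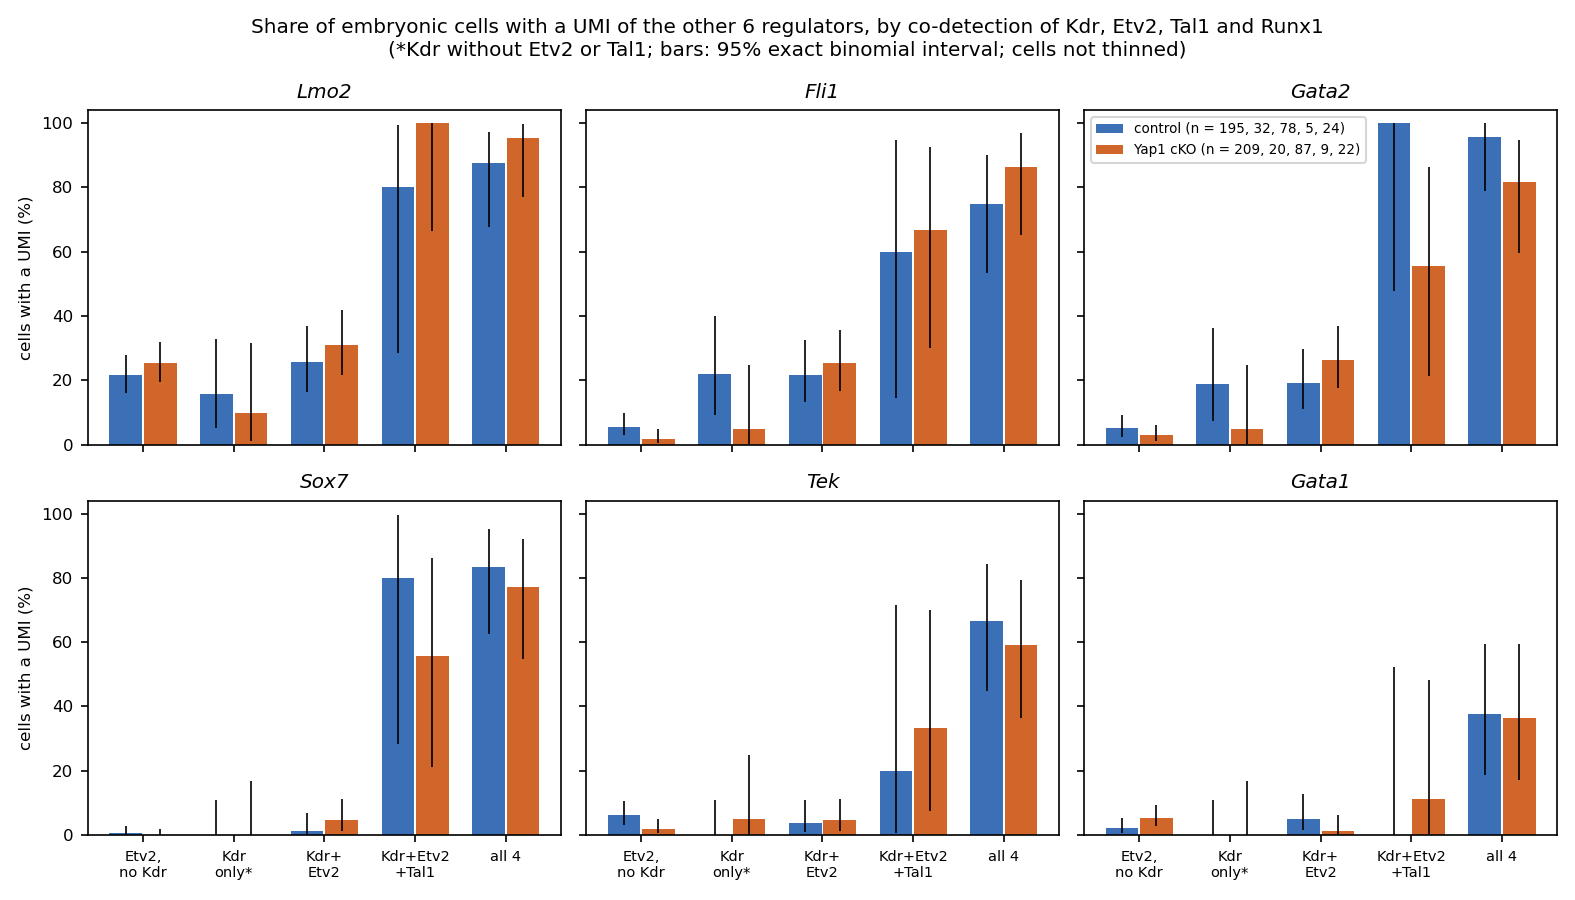
Share of embryonic cells (percent, bars from 0, with the 95% exact binomial interval) with a UMI of *Lmo2*, *Fli1*, *Gata2*, *Sox7*, *Tek* or *Gata1*, in 5 classes of cells set by *Kdr*, *Etv2*, *Tal1* and *Runx1*, control in blue and *Yap1* cKO in orange. For all 6 genes the bars of the class with all 4 stand above those of the classes without *Tal1*. They also stand above those of the class with *Etv2* and no *Kdr*, which was not split by *Tal1*.

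Among the cells with all 4, *Etv2* tended to be lower where *Runx1* was higher. There were exceptions: a control cell held 33 *Runx1* and 28 *Etv2* UMIs, and another held 34 and 35. Cells that also held *Gata1* (9 control, 8 cKO) had a median of 28 and 16 *Runx1* UMIs, beside 3 and 2 in those without *Gata1* (15 and 14). For *Etv2* the medians were 7 and 4.5 with *Gata1*, beside 16 and 26.5 without. *Kdr* did not part the cells in this way, with medians of 18 and 27 beside 21 and 23.5. Spearman's rank correlation of CPM between *Etv2* and *Runx1* was -0.61 over the 24 control cells and -0.51 over the 22 cKO cells, and between *Runx1* and *Gata1* 0.72 and 0.76. These are descriptions over cells that share a library and were scaled by their own totals. In the cKO gate, Y-bearing cells did not exceed 3 *Runx1* UMIs and the cells richest in *Runx1* were Xist-bearing. The part of sex and embryo in this relation was not tested.

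**Figure D4:**
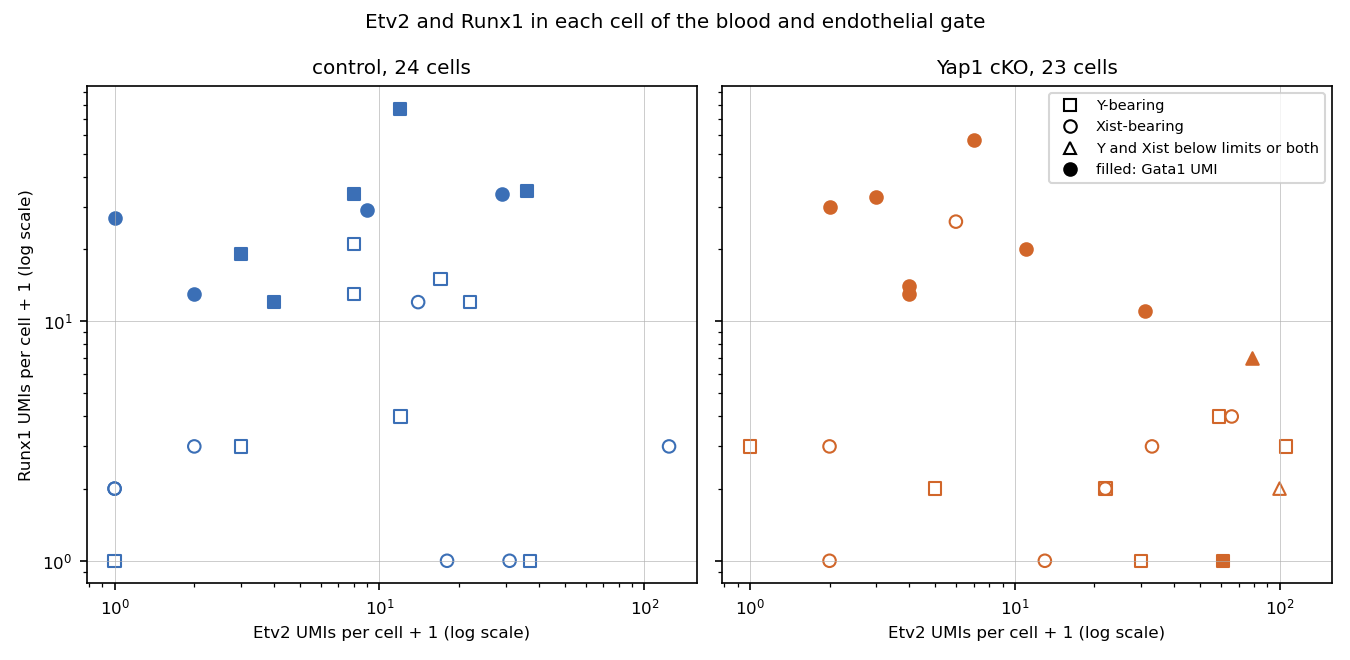
*Etv2* against *Runx1* UMIs plus 1 (log axes) in each cell of the blood and endothelial gate, control on the left and *Yap1* cKO on the right, with squares for Y-bearing and circles for Xist-bearing cells and filled symbols for a *Gata1* UMI. Cells rich in *Runx1* and with *Gata1* include both sexes in the control, while in the cKO the cells richest in *Runx1* are Xist-bearing, up to 56 UMIs, and Y-bearing cells do not exceed 3.

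Over the 16 points given by 8 gates and 2 libraries, *Rhoj* had the pattern most like *Tal1* (Pearson r = 0.97), *Lmo2* (0.95) and *Fli1* (0.97) among 14274 other genes. *Sox18*, a gate gene, was among the 3 closest to *Tal1* and *Lmo2*. *Tek* was closest to *Cped1* (0.97), *Hapln1* (0.96) and *Ptprb* (0.96), *Kdr* to *Zeb1* (0.95), *Tgfb1* (0.94) and *Hoxb2* (0.93), and *Etv2* to *Plk2* (0.96). *Runx1* and *Sox7* shared *Wnk4* among their closest genes (0.96 and 0.96), and *Gata1*, the least well matched, was closest to *Prkab1* (0.90). Among members the closest pairs were *Tal1* with *Fli1* (0.97) and *Runx1* with *Sox7* (0.95), and *Etv2* with *Runx1* had 0.23. The points share libraries, so these values are descriptions.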

How the data were processed

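Cells of pooled E7 embryos were measured in 1 library per genotype. The authors ran Cell Ranger 7.1.0, per the labels, against mm10. The deposited files hold raw UMI counts per gene and barcode, without normalization. Reads over overlapping genes can be misassigned.

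The members and gene lists were chosen with earlier results of these data known. Cells had at least 5000 genes, at most 10% mitochondrial UMIs and no scrublet doublet call (scanpy 1.11.5, automatic threshold), which removed 1 control and 4 cKO barcodes. Such a low rate of calls means that doublets may remain.

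Gates were applied in order: visceral endoderm (summed CPM of 8 genes over a limit set by Otsu's method, 262 CPM), extraembryonic ectoderm (5 genes, 113 CPM), blood and endothelial (at least 3 of 12 genes), node and axial (5 UMIs and 2 genes of 5), Foxf1/Hand1 mesoderm (5 UMIs), nascent mesoderm (3 UMIs of *Mesp1* and *Mesp2*), primitive streak (3 UMIs of *T* and *Mixl1*) and epiblast (3 UMIs of *Pou5f1*). Cells over both extraembryonic limits (8 and 6) were left out. The ectoderm limit departs from the plan. As planned, over all cells, it fell at 11.2 CPM and put 67 control and 151 cKO cells above both limits, so it was set among cells with a UMI of its list after this was seen.

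UMIs were summed per gate and library and scaled to CPM, with exact Poisson intervals. Ratios have exact conditional binomial intervals and shares Clopper-Pearson intervals, all at 95% (scipy 1.17.1). These, and the limit of 3 counts given for a count of 0, cover counting error only, and no test between genotypes was made. For shares, cells were thinned to 38000 UMIs, which left out 26 control and 48 cKO cells. The limit of 1.5-fold and the minimum of 20 UMIs define a call. The steps were tested on simulated data. Alternatives were other gene and marker minimums, doublets kept, other scalings, cells weighted equally, cells of 1 sex, other folds, other detection limits and left-out cells. Those on the ectoderm limit, on cells at 0 *Kdr* (in all cells and within each sex) and on cells over 1000 CPM of *Prl3d1* were chosen after seeing the data. Named genes were the members, list genes past the fold in the blood and endothelial gate, and the 3 genes most like each member with at least 100 UMIs. List genes in Foxf1/Hand1 mesoderm, and those past the fold only without the cells at 0 *Kdr*, were named after their values were seen.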

Additional observations from a re-analysis of the deposited data

Results flagged for a closer look

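In the blood and endothelial gate, the ratio of cKO to control in Xist-bearing cells divided by that in Y-bearing cells was 3.81 for *Kdr*, 5.09 for *Lmo2*, 3.97 for *Fli1*, 36.9 for *Gata1*, 18.5 for *Gata2* and 33.9 for *Runx1*. These genes were above 1 in cells of one sex and below 1 in cells of the other, with intervals that left out 1. Without the gate's cells at 0 *Kdr*, these values were 1.43, 1.96, 1.49, 13.8, 6.2 and 19.4 in the same order. The *Kdr* interval in Y-bearing cells and those of *Lmo2*, *Fli1*, *Gata1* and *Gata2* in Xist-bearing cells then held 1. For *Kdr*, by which the cells were left out, only the UMI totals changed. The difference was not tested, since each genotype is 1 library, and sex cannot be told apart from the embryo of origin.

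Some members were higher in one gate and lower in another, a difference that was also not tested. *Kdr* had a ratio of 4.8 in visceral endoderm and 0.171 in the primitive streak, and *Etv2* 4.50 and 0.353. In visceral endoderm the control had only 3 and 2 UMIs of these genes, 27 of the 40 cKO *Kdr* UMIs were in 1 cell, and in the streak 25 of the 42 control *Kdr* UMIs were in 1 cell. *Lmo2* had 1.5 in Foxf1/Hand1 mesoderm (1.49 without the cells rich in *Prl3d1*) and 0.127 in the streak. With 2 marker genes for the blood and endothelial gate, its value in the streak was 0.856. *Gata2* had 3.79 in visceral endoderm and 0.622 in the blood and endothelial gate, and *Sox7* 1.80 in visceral endoderm and 0.0518 in extraembryonic ectoderm. Control and cKO UMIs were 77 and 15 for *Lmo2* (streak), 15 and 158 for *Gata2* (visceral endoderm) and 26 and 1 for *Sox7* (extraembryonic ectoderm). These reached the minimum only with the library where they were high, so their calls were favoured. The same holds for *Kdr* in both gates and for *Etv2* in visceral endoderm.

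Barcodes with at least 2000 but under 5000 detected genes were left out of the main comparisons. They were not sorted into gates here, so their levels also depend on the mix of cell types, whose part was not tested. In them *Runx1* had 37.2 CPM in the cKO (32.0 to 43.0, 417 barcodes) and 24.6 CPM in the control (19.9 to 30.0, 301 barcodes). *Lmo2* had 12.7 CPM in the cKO and 40.7 in the control.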

How the results depend on the processing

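No paired analysis was possible because each genotype has 1 library. Over 65 results, 875 values were recomputed, of which 679 stayed near the main value, 173 moved and 23 changed direction. Some of the 679 could not move. The limit of 200 CPM of visceral endoderm genes removed no cell, and leaving out blood-gated cells at 0 *Kdr* did not touch the other gates. The 679 is thus no measure of how stable the results are. A ratio counted as near where it lay inside its main interval, whether or not its call was kept. A change of direction was counted only for genes called higher or lower in the main analysis. Crossings of 1 by genes without a call are thus not among the 23. In the blood and endothelial gate, *Kdr* and *Gata1* kept their direction in 11 of 15 settings and *Fli1* in 12. With 2 marker genes the blood and endothelial gate held 60 and 73 cells, 0 members were higher and 8 lower, and the ratios were 1.14 (*Etv2*), 0.412 (*Runx1*), 0.797 (*Kit*), 0.372 (*Sox17*) and 0.751 (*Mecom*). With 4 marker genes it held 13 and 8 cells, 0 members were higher and 0 lower, and the ratios were 0.852 (*Runx1*), 0.508 (*Sox17*) and 1.13 (*Cdh5*). In Y-bearing cells (13 and 7), 9 members were lower, with 2.28 for *Etv2*, 0.050 for *Runx1*, 0.867 for *Kit*, 0.217 for *Sox17* and, in visceral endoderm, 0.781 for *Sox7*. In Xist-bearing cells (11 and 14), 3 were higher and 0 lower, with 0.838 for *Etv2*, 1.42 for *Gata2*, 1.70 for *Runx1*, 1.21 for *Tek*, 2.05 for *Cdh5* and 1.81 for *Smim1*. With the ectoderm limit set over all cells 0 members were higher and *Etv2* was at 1.44. Without cells at 0 *Kdr*, 1 member was lower, with *Kit* at 0.952 and *Sox17* at 0.567. Without them in Y-bearing cells (11 and 5), 6 were lower, with 4.75 for *Etv2*, 0.0702 for *Runx1*, 0.479 for *Kit* and 0.362 for *Sox17*, and in Xist-bearing cells (8 and 12) 0 were higher and 1 lower, with 0.652 for *Etv2*, 1.11 for *Gata2*, 1.36 for *Runx1*, 1.61 for *Cdh5* and 1.40 for *Smim1*. With cells weighted equally, a call used the fold and the minimum of UMIs but no interval. In that setting 1 member was lower and *Etv2* was at 2.10. The shares of all genes with equal weights, given below, are thus not comparable with the others. With a fold of 2, 0 were higher and 0 lower. With detection at 2 UMIs, the share of cKO cells with all 4 genes was 1.36%. Of all genes compared, 3.94% were higher and 5.18% lower with 2 marker genes, 4.47% and 3.65% with 4, 10.1% and 9.34% in Y-bearing cells, 5.06% and 4.90% in Xist-bearing cells, 5.02% and 3.11% with the ectoderm limit over all cells, 6.73% and 3.13% without cells at 0 *Kdr* (9.41% and 6.77% of the Y-bearing comparison, 3.89% and 3.40% of the Xist-bearing one), 11.3% and 7.80% with equal weights and 2.98% and 1.83% with a fold of 2. The cause of these changes was not tested. Leaving out embryonic cells over 200 CPM of visceral endoderm genes removed none. With 24 and 23 cells in the gate, single cells carry much of a sum.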
